A study of Mus musculus with 24 samples.

Results

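The 9 chromatin regulators described here are genes on which acute leukemias commonly depend. They were followed through Tut4 and Tut7 loss in transformed mouse blood progenitors, as messenger RNA abundance and as the decay of labelled RNA. The genes were Kmt2a, Men1, Psip1, Dot1l, Ezh2, Eed, Suz12, Bmi1 and Kdm1a. The rule took every table line whose transcript accession belongs to one of these genes, except that the Kmt2a line was named by its position. The rule itself used no measured value, but the genes, and the lists of partners and targets below, were chosen with earlier results of these data known. All 9 were found among the 20755 genes of the tables, and all 9 passed the filter on low counts in every comparison of abundance.

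The cells were fetal liver cells of C57BL/6 mice, taken at embryonic day 14.5, enriched for c-Kit and transformed by retroviral Meis1 and Hoxa9. The labels call them preleukemic cells and write the treatment as Hox9/Meis1. Both genotypes carried floxed Tut4 and Tut7 (Tut4 fl/fl, Tut7 fl/fl). Controls lacked the Vav-iCre transgene, which is active throughout blood cells, and the deleted cells, labelled Tut4/7 Vav-iCre cDKO, carried it. Cells were grown with SCF, IL-6 and IL-3. They received 2.9 µM 4-thiouridine for 12 h and were collected 0, 60, 180 or 540 min after its removal, which gave 24 libraries, 3 for each of 8 groups. Each chase time is a batch of its own in the labels. Genotypes are compared within a batch, while time and batch cannot be told apart. Replicates are described in the study as biological triplicates, and nothing in the labels says which animals or transductions they came from.

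Each library held 4374608 to 7031823 reads in 3′ untranslated regions (3′UTRs). Tut4 at 0 min was 68.2, 75.3 and 86.4 CPM (reads of a gene scaled to the reads in 3′UTRs of the library) in control and 17.8, 30.2 and 18.7 CPM in cDKO. Tut7 was 40.3, 34.6 and 45.1 CPM in control and 16.7, 19.3 and 20.2 CPM in cDKO. Both genes were lower in every cDKO library, and both kept reads there. The labelled identity was checked against 10 myeloid progenitor markers, all of which had reads in both genotypes. Their summed level was 8053 to 9052 CPM in control and 2403 to 3606 CPM in cDKO. The medians in control and cDKO were 555 and 9.61 CPM for Mpo and 1380 and 32.1 CPM for Elane. They were 2847 and 640 CPM for Prtn3 and 3104 and 1547 CPM for Ctsg. Kit, Spi1, Ptprc and Csf3r were also lower in cDKO by the median. Cd34 (20.1 and 27.6 CPM) and Cebpa (147 and 175 CPM) were higher. Erythroid markers summed to 0.372 to 3.08 CPM in control and 1309 to 2093 CPM in cDKO, with 3 of 9 detected in control, 7 of 9 in cDKO, and Epor and Alas2 at 0 in both. Hbb-bt alone made up 1302 to 2078 CPM of the cDKO sum, and the median of Klf1 was 0.490 CPM in control and 0.302 CPM in cDKO. Mast cell and basophil markers summed to 16.7 to 35.3 and 147 to 322 CPM, with Fcer1a and Tpsb2 at 0 in both genotypes. Cpa3, Gata2 and Hdc carried the higher sum. The median of Mcpt8 was lower in cDKO (14.6 and 9.90 CPM), and that of Ms4a2 was 6.18 and 5.98 CPM. Stromal markers summed to 55.5 to 122 and 262 to 498 CPM, megakaryocyte markers to 2.40 to 9.69 and 7.33 to 23.7 CPM, and B and T cell markers stayed at or below 1.99 CPM. Of the stromal list Pecam1 carried the sum (median 82.0 and 385 CPM), with Col3a1 and Cdh5 at 0. Of the megakaryocyte list Itga2b was higher (median 0.366 and 13.1 CPM), while Pf4 was at 2.95 and 1.47 CPM and Gp9 at 1.35 and 0 CPM. These genes differed with genotype in the same libraries as every comparison below, and their part in the results was not tested. In such bulk samples fewer cells of a type and less RNA per cell cannot be told apart.

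These proteins write, read or remove marks on histone tails. KMT2A (MLL1) methylates lysine 4 of histone H3 and is held at its targets by menin, the product of Men1, and by LEDGF, the product of Psip1. DOT1L methylates lysine 79 along transcribed genes, and its recruitment by MLL fusion proteins sustains the Hoxa and Meis1 genes in leukemia. EZH2, EED and SUZ12 form the core of Polycomb repressive complex 2 (PRC2), which methylates lysine 27, and BMI1 (PCGF4) belongs to Polycomb repressive complex 1 (PRC1), which ubiquitinates histone H2A. KDM1A (LSD1) removes methyl groups from lysine 4 within the CoREST complex and keeps myeloid cells from differentiating.

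The first question was whether the deletion changed how much of each messenger RNA the cells held. One of the 9 regulators, Suz12, differed between genotypes at 0 min, against 13.4% of all 10150 genes tested (1361 genes, edgeR quasi-likelihood test, adjusted p under 0.05). Suz12 was also the single regulator called at 60 min, where 20.2% of genes were called. None of the 9 was called at 180 min, where the background was 18.9%, or at 540 min, where it was 19.3%. Without adjustment, 1 regulator at 180 min (Kdm1a) and 0 at 540 min had p under 0.05, and DESeq2 called 0 at either time. The median log2 change of the 9 was 0.08, 0.09, 0.05 and 0.02 at the 4 times, beside medians of 0.01, 0.00, 0.01 and 0.00 over all genes tested. Single changes lay between -0.40 (Kdm1a at 180 min) and 0.43 (Suz12 at 0 min). The libraries of both genotypes did not overlap for 2 of the 9 at 0 min, beside 33.4% of all genes, for 2 at 60 min (38.5%), 1 at 180 min (37.4%) and 1 at 540 min (37.2%). With 3 libraries a group the standard errors ran from 0.09 (Suz12 at 60 min) to 0.37 (Kdm1a at 0 min), and a p that misses the threshold does not show that the level was equal.

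**Figure D1:**
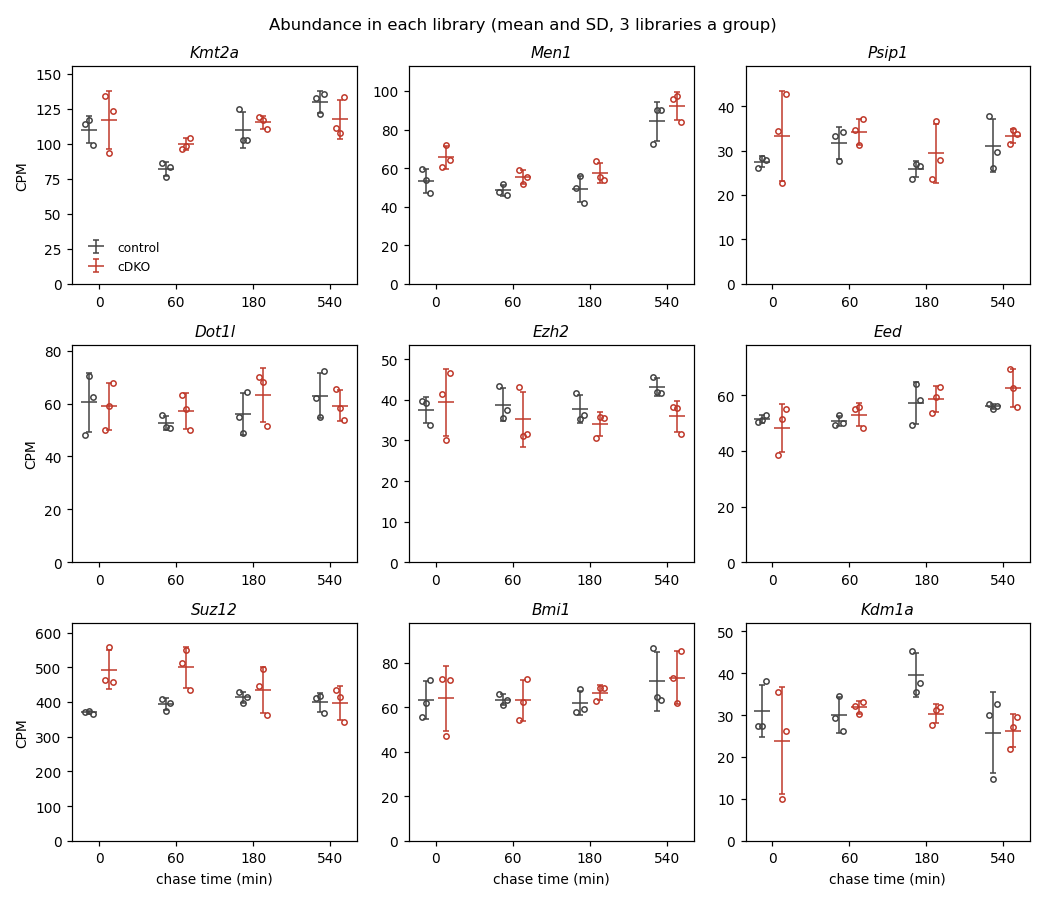
Abundance of each regulator (CPM, axis from 0) against chase time (min, evenly spaced), with open circles for libraries and bars for the mean and SD of 3 libraries in control (grey) and cDKO (red). Suz12 lies at 458 to 558 CPM in cDKO against 366 to 373 CPM in control at 0 min, and Men1 is highest at 540 min in both genotypes.

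**Figure D2:**
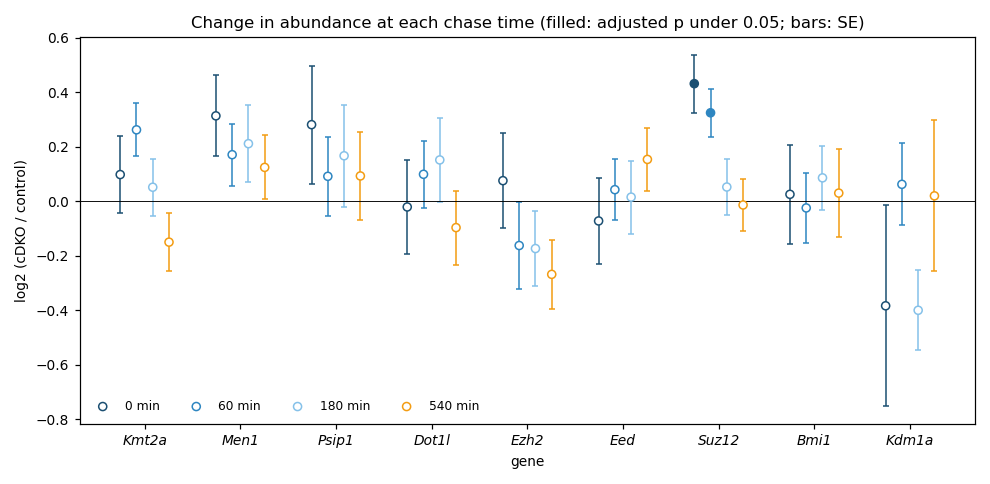
Log2 change in abundance, cDKO over control, with its SE for each regulator at each of the 4 chase times. Filled points passed an adjusted p of 0.05, which were Suz12 at 0 and 60 min (0.43 and 0.32), and the other points lie between -0.40 and 0.31.

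Kmt2a was measured over the 4547 bases of its 3′UTR on the minus strand of chromosome 9, from 44803355 to 44807901 (GRCm38, the build of all positions here). At 0 min it stood at 114, 117 and 98.7 CPM in control and 134, 93.3 and 124 CPM in cDKO, and the groups overlapped. At 60 min it was 86.5, 76.3 and 83.2 CPM in control and 96.4, 98.6 and 104 CPM in cDKO. Those groups did not overlap, and the log2 change of 0.26 ± 0.10 (SE) did not pass the test over all genes (edgeR adjusted p = 0.0846). At 540 min the groups overlapped again, at 121 to 136 CPM in control and 108 to 133 CPM in cDKO (log2 change -0.15 ± 0.11).

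Men1, whose product menin is the target of drugs that displace it from KMT2A, was read from 722 bases on chromosome 19, 6340173 to 6340894. At 0 min it was 59.5, 53.6 and 46.9 CPM in control and 60.3, 72.1 and 64.1 CPM in cDKO. Every cDKO library was above every control library by a narrow margin, and the log2 change of 0.31 ± 0.15 was not called (edgeR adjusted p = 0.218). At the later times the change was 0.17, 0.21 and 0.12, none of them called. Psip1, which encodes the chromatin tether LEDGF, spanned 23.7 to 37.7 CPM in control and 22.6 to 42.8 CPM in cDKO. Its log2 changes ran from 0.09 to 0.28, none of them called.

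Psip1 was the only one of the 9 with more than 1 separate 3′UTR interval, and both lie on the minus strand of chromosome 4. The distal interval spans 1339 bases (83455680 to 83457018) and the upstream interval, the end of a shorter isoform, 578 bases (83461871 to 83462448). At 540 min the upstream interval took 14.3 to 18.3% of Psip1 reads in control and 24.9 to 27.6% in cDKO, without overlap. An exact permutation test on both sides gave p = 0.1, which 3 against 3 libraries cannot go below. At 0, 60 and 180 min the same exact test gave p = 0.3, 0.2 and 0.7, with overlapping groups. Adjusted over these 4 comparisons, the p at 540 min was 0.4.

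Dot1l, the sole lysine 79 methyltransferase, was read from 833 bases on chromosome 10 (80793515 to 80794347). Its levels lay at 48.3 to 72.1 CPM in the 12 control libraries and 49.8 to 70.1 CPM in the 12 cDKO libraries. The log2 change was -0.02 ± 0.17 at 0 min and stayed between -0.10 and 0.15 afterwards. Bmi1, the PRC1 member, likewise spanned 55.4 to 86.7 CPM in control and 47.0 to 85.2 CPM in cDKO, over 2148 bases of chromosome 2 (18684482 to 18686629). Its log2 changes were 0.03, -0.02, 0.09 and 0.03 in order of time.

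Of the core PRC2 subunits, Suz12 was called and Ezh2 and Eed were not. The catalytic subunit Ezh2 (chromosome 6, 47530274 to 47530540, minus strand) was 39.7, 39.1 and 33.9 CPM in control and 41.4, 30.2 and 46.5 CPM in cDKO at 0 min. At 540 min it was 45.7, 41.9 and 41.8 CPM in control and 38.3, 38.0 and 31.6 CPM in cDKO. There every cDKO library was below every control library, yet the log2 change of -0.27 ± 0.13 was not called (edgeR adjusted p = 0.183). Eed, which binds methylated lysine 27 and stimulates the enzyme, lay on chromosome 7 (89954654 to 89954936, minus strand) and had log2 changes of -0.07, 0.04, 0.02 and 0.15.

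Suz12, the scaffold of PRC2, was the most deeply read of the 9, with 1918 to 3157 reads per library in 1933 bases of chromosome 11 (80032191 to 80034123). At 0 min it was 372, 373 and 366 CPM in control and 464, 558 and 458 CPM in cDKO. The log2 change was 0.43 ± 0.11 (edgeR adjusted p = 0.0272). At 60 min it was 409, 375 and 396 CPM in control and 514, 551 and 435 CPM in cDKO. There the difference on the log2 scale was 0.32 ± 0.09 (edgeR adjusted p = 0.0262). The groups overlapped at 180 min (0.05 ± 0.10) and at 540 min (-0.01 ± 0.10). In cDKO the Suz12 mean fell from 493 ± 55.8 CPM at 0 min to 397 ± 48.0 CPM at 540 min (SD, n = 3), while in control it was 370 ± 3.62 and 399 ± 27.0 CPM. That difference between genotypes in the change over time was -0.42 ± 0.15 on the log2 scale and was not called (edgeR adjusted p = 0.926).

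A large share of the Suz12 signal came from multimapping reads, those that align to several places in the genome. They were 39.6 to 53.7% of its reads per library. In the other 8 genes they were at most 6.38% in any library. At 0 min the multimapping share was 47.0, 43.6 and 39.6% in the control libraries and 48.2, 52.7 and 48.1% in cDKO, without overlap. With multimapping reads left out of every gene, Suz12 at 0 min was 219, 233 and 245 CPM in control and 267, 295 and 263 CPM in cDKO. All 3 cDKO libraries remained above the control libraries, but the log2 change was 0.26 ± 0.09 and no longer called (edgeR adjusted p = 0.114). At 60 min it was 0.22 ± 0.11 (adjusted p = 0.208). The call at 0 min was also lost without any 1 of the control libraries (adjusted p 0.0962 to 0.129). The call at 60 min was lost without any 1 library other than cDKO replicate 3 (adjusted p 0.0582 to 0.115).

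**Figure D3:**
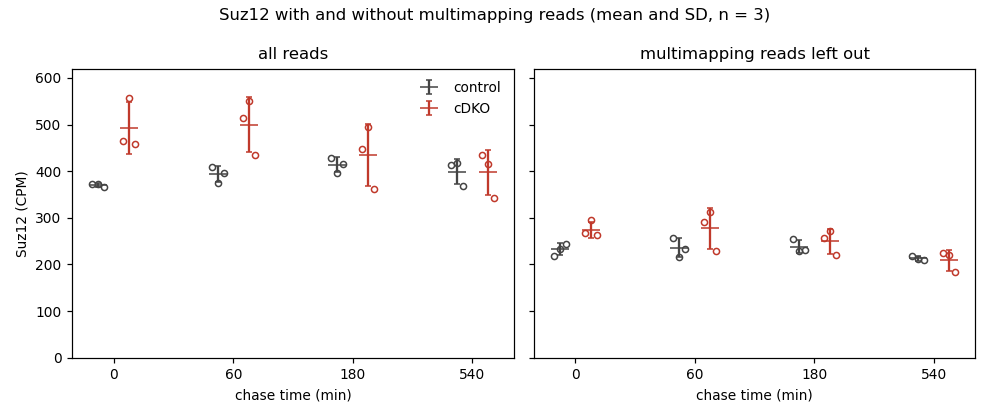
Suz12 abundance (CPM) against chase time (min, evenly spaced) from all reads (left) and without multimapping reads (right), with libraries as circles and mean and SD of 3 libraries. The gap between genotypes at 0 min narrows from a log2 change of 0.43 to one of 0.26.

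Kdm1a rested on 57 to 251 reads per library over 315 bases of chromosome 4 (136550533 to 136550847, minus strand). At 0 min it was 27.3, 27.5 and 38.1 CPM in control and 35.4, 10.1 and 26.1 CPM in cDKO, with cDKO replicate 2 far below the rest. The log2 change there was -0.38 ± 0.37, and it was -0.02 ± 0.21 without that library and -0.77 ± 0.38 without cDKO replicate 1. At 180 min it was 45.4, 35.4 and 37.6 CPM in control and 27.7, 31.2 and 32.0 CPM in cDKO. The groups did not overlap there, and the log2 change of -0.40 ± 0.15 was not called (edgeR adjusted p = 0.0857).

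TUT4 and TUT7 add uridines to let-7 precursors and to other RNAs, and Ezh2 is a known target of let-7, miR-101 and miR-26a. The sequences are shown because each of these microRNAs has a seed match in the short 3′UTR of Ezh2. The mature mouse microRNAs are shown from RefSeq (GRCm38.p6) with the seed, bases 2 to 8, in capitals.

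let-7a-5p: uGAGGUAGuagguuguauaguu
miR-101a-3p: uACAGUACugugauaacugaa
miR-26a-5p: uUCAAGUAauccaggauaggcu

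The interval's sequence was taken from the end of a GENCODE vM39 transcript of equal length and T count, which was found for 9 of the 10 intervals of the 9 genes and not for the distal interval of Psip1. The letters CTACCTC pair with the seed of let-7, GTACTGT with that of miR-101 and TACTTGA with that of miR-26a. They were searched on the transcript strand only. The 267 bases of Ezh2 held all 3, and the windows below show them in capitals with their first base counted from the start of the 3′UTR.

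let-7 match, base 7: catctaCTACCTCttccccttctc
miR-101 match, base 59: aggaaccttgaGTACTGTgggcaatttag
miR-101 match, base 114: gaatttgcaaaGTACTGTaacagtaattt
miR-26a match, base 248: tgaataaagaaTACTTGAacttgttgttg

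Among 1190 3′UTRs within 20% of that length, 1.85% held the let-7 match, 1.76% the miR-101 match and 2.44% the miR-26a match. Of the other regulators, Dot1l held 1 let-7 and 1 miR-101 match, Eed and Kmt2a 1 miR-101 match each, and Bmi1 and Suz12 1 miR-26a match each. The let-7 match of Dot1l is shown because it sits, as in Ezh2, at the very start of the interval, at base 9.

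Dot1l let-7 match, base 9: gacttctaCTACCTCagccacgacct

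Men1, Kdm1a and the upstream Psip1 interval held none of the 3. MicroRNAs were not measured in these libraries, and neither Ezh2 nor Dot1l was called in any comparison of abundance.

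The second question was whether the regulators kept a steady level through the chase, because the loss of label reads as decay only at constant abundance. One of the 9, Men1, was called between 0 and 540 min in control, where 16.0% of genes were called. It was 59.5, 53.6 and 46.9 CPM at 0 min and 72.5, 90.0 and 90.0 CPM at 540 min, without overlap. The rise was 0.63 ± 0.12 on the log2 scale (edgeR adjusted p = 0.00198), while at 60 and 180 min the means were 48.4 ± 2.97 and 49.1 ± 6.94 CPM (SD, n = 3). Without replicate 3 the change was 0.48 and not called (adjusted p = 0.0814). In cDKO, Men1 went from 60.3, 72.1 and 64.1 CPM to 95.6, 97.3 and 84.0 CPM, again without overlap, and this was not called (0.46 ± 0.13 on the log2 scale, edgeR adjusted p = 0.284). In cDKO 0 of the 9 were called, 2 had an unadjusted p under 0.05 (Men1 and Suz12) and DESeq2 called 0, where the background was 0.118% of genes. Replicate numbers paired the cDKO libraries across times, and with the number as a block 128 genes were called in place of 12, still without any of the 9 (adjusted p = 0.106 for Men1 and 0.124 for Suz12). Whether the change over time depended on genotype was tested by an interaction term, which was called for 0 of the 9 and for 0.0% of 10612 genes. Suz12 alone of the 9 and 556 genes in all had an unadjusted p under 0.05 there, and DESeq2 called 0 of the 9.

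The label itself differed between genotypes before any decay. At 0 min 1.62 to 1.67% of all covered T positions read as C in control and 0.542 to 0.845% in cDKO (exact permutation test, p = 0.1, the limit of 3 against 3 libraries, and 0.1 after adjustment over the 4 times). The regulators shared this deficit. Suz12 was converted at 1.90, 1.87 and 1.81% in control and 1.09, 0.996 and 0.675% in cDKO. Relative to the rate of each library, none of the 9 differed between genotypes, with log2 differences from -0.34 ± 0.24 (Ezh2) to 0.34 ± 0.18 (Bmi1). In this test 0.319% of 8786 genes were called and 0 regulators had an unadjusted p under 0.05. DESeq2 gave an adjusted p for only 3 of the 9 and called 0 of these.

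**Figure D4:**
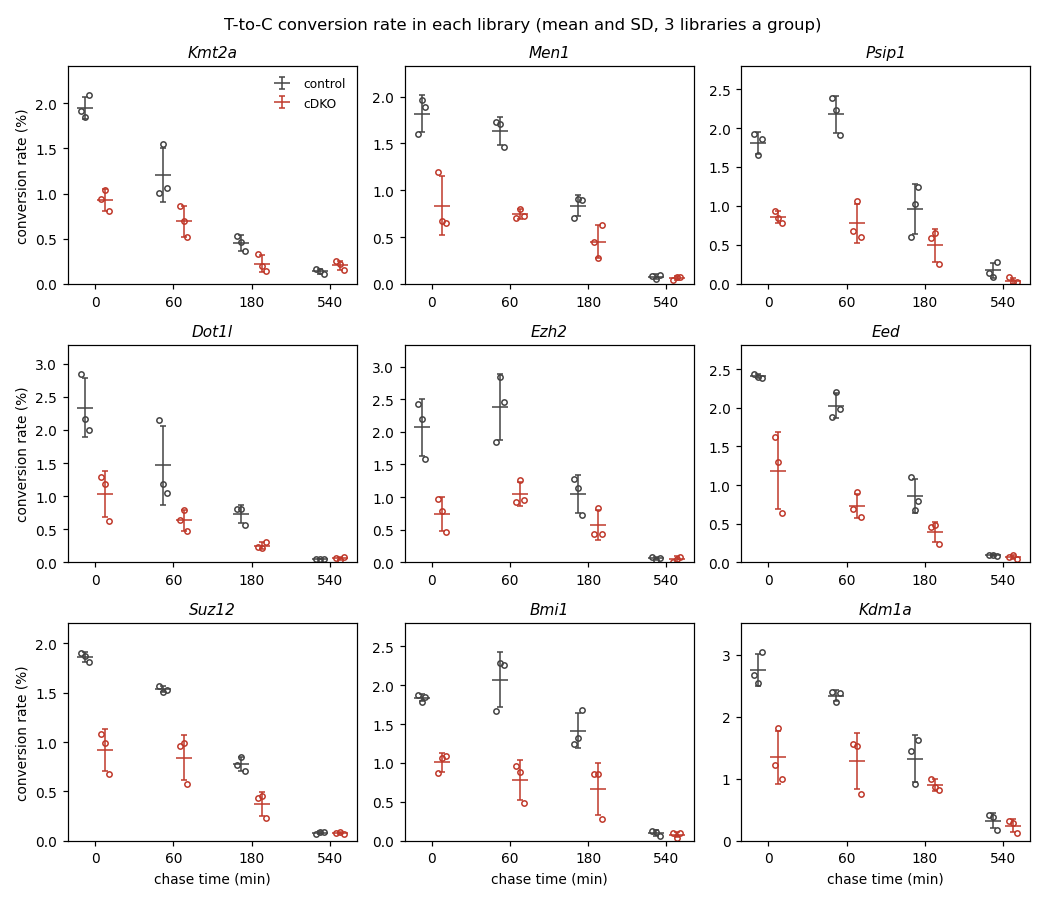
T-to-C conversion rate (% of covered T positions, axis from 0) of each regulator against chase time (min, evenly spaced), with libraries as circles and mean and SD of 3 libraries in control (grey) and cDKO (red). Control rates start at 1.58 to 3.04% and cDKO rates at 0.460 to 1.82%, and no library is above 0.410% at 540 min.

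The course between the first and last time differed in shape among the genes. Kmt2a in control had lost label by 60 min, at 1.01, 1.55 and 1.06%, and stood at 0.532, 0.466 and 0.363% by 180 min. Psip1 in control was at 1.92, 1.65 and 1.86% at 0 min and at 2.38, 2.23 and 1.91% at 60 min, so no loss showed in its first hour, and the Bmi1 rates of 1.88, 1.79 and 1.85% were followed by 1.67, 2.29 and 2.26%. Kdm1a in control kept 1.44, 0.909 and 1.63% at 180 min and 0.410, 0.382 and 0.181% at 540 min.

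In cDKO the rates started lower in every library. Psip1 went from 0.937, 0.849 and 0.784% at 0 min to 0.0837, 0.0181 and 0.0192% at 540 min, with 4, 1 and 1 conversions. Ezh2 went from 0.977, 0.785 and 0.460% to 0, 0.0521 and 0.0857%. In replicate 1 at 540 min 0 of 5563 covered T positions was converted, which allows a rate of up to 0.0539% for counting error alone.

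All 9 messages lost label over the chase in both genotypes. In control the fitted slope ran from -0.60 ± 0.05 (Dot1l) through -0.51 ± 0.03 (Suz12) to -0.35 ± 0.04 log2 units per hour (Kdm1a), beside an all-gene median of -0.42. Of the 9, 7 had a steeper slope than that median in control, the exceptions being Psip1 and Kdm1a. In cDKO, where the median was -0.33, 7 were again steeper, the exceptions being Kmt2a and Kdm1a. Men1 was steeper in both genotypes, but its abundance was higher at 540 than at 0 min, so its slope does not read as decay alone. For Dot1l, reads holding a conversion outnumbered the counted conversions in several libraries. In control at 540 min there were 4, 11 and 13 such reads against 3, 3 and 4 conversions. Why was not tested, and the Dot1l rates and slopes rest on the counted conversions. The slope was less steep in cDKO for 8 of the 9, the exception being Psip1 at -0.40 ± 0.05 in control and -0.47 ± 0.06 in cDKO. How many of all genes went this way was not counted, so this count does not set the regulators apart from other genes. The difference, cDKO minus control, had a median of 0.10 over the 9 and 0.07 over all genes. This test follows the rates as measured, and with the library-wide rate in the offset the medians were 0.06 and 0.03. All 12 genes called were less steep in cDKO, while with that offset 23 were called, 8 less steep and 15 steeper. None of the 9 was called (edgeR, genotype by hour), against 0.131% of 9182 genes, while Kmt2a and Suz12 had unadjusted p under 0.05 and DESeq2 called 0. At 540 min the mean rates of Men1, Dot1l, Ezh2 and Suz12 were 0.0770, 0.0496, 0.0609 and 0.0824% in control. In cDKO they were 0.0636, 0.0599, 0.0459 and 0.0798%. These lie near or below a background rate of 0.0751%, read in cDKO at 540 min from genes that lost label fast in control. The means of Kmt2a, Kdm1a, Bmi1 (0.101% in control and 0.0793% in cDKO) and, by little, Suz12 were above it in both genotypes. Psip1 was at 0.171% in control and 0.0403% in cDKO, and Eed at 0.0904 and 0.0688%. Both were thus below it in cDKO only. The cDKO rates fell from a lower start, and the part of this floor in the slopes was not tested.

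Kmt2a showed the widest difference, 0.18 ± 0.06 log2 units per hour (edgeR adjusted p = 0.131). Its rate at 540 min was 0.166, 0.140 and 0.104% in control and 0.249, 0.219 and 0.151% in cDKO, the only time at which a cDKO rate of Kmt2a was above that of a control library. At 0 min the rates had been 1.91, 1.85 and 2.09% against 0.944, 1.04 and 0.805%. Divided by the rate of the library, the 540 min values were 0.536, 0.425 and 0.343 in control and 1.31, 1.05 and 0.93 in cDKO, without overlap. The 540 min rates rest on 17 to 20 conversions per control library and 19 to 27 per cDKO library, and without these libraries the slopes differed by 0.01 ± 0.16. For Suz12 the difference was 0.11 ± 0.04 (edgeR adjusted p = 0.159) and without the 540 min libraries it was -0.02 ± 0.10. Multimapping reads, 39.6 to 53.7% of Suz12 reads per library, were left out for abundance only. The labelling, slopes and half-lives of Suz12 were taken from all its reads, and the part of multimapping reads in them was not tested.

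Half-lives were fitted as a single exponential, over all libraries of a genotype and per replicate number. Control numbers did not pair the libraries across times, so a replicate half-life there may join libraries of different cultures. The filter on replicate spread at 0 min (SD below 0.3 of the mean in both genotypes) kept Kmt2a, Psip1, Suz12 and Bmi1, and removed the other 5 for their cDKO spread of 0.315 to 0.421. The fit gave Kmt2a 87.4 min in control against 115 min in cDKO, and Suz12 150 against 165 min. Without cDKO replicate 1 Kmt2a was at 87.4 against 89.2 min, and without cDKO replicate 2 Suz12 was at 150 against 152 min. Bmi1, at 278 and 210 min, and Psip1, at 235 and 199 min, ran the other way. Without cDKO replicate 3 Bmi1 was at 278 against 295 min and Psip1 at 235 against 238 min. By its replicate half-lives the log2 ratio of Psip1 was then -0.01. The replicates spread widely, at 65.5 to 119 min in control and 84.9 to 186 min in cDKO for Kmt2a, at 225 to 319 min in control and 66.6 to 366 min in cDKO for Bmi1 and at 146 to 156 and 145 to 189 min for Suz12. For Psip1 they lay at 182 to 270 min in control and 119 to 279 min in cDKO. No pair of groups was apart (exact permutation test of 3 against 3, p = 0.4 to 0.7, and 0.7 for each of the 4 after adjustment). Thus 2 of 4 fitted regulators had a longer half-life in cDKO, beside 67.6% of 3704 genes.

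The regulators act with partner proteins and on target genes, which were taken from 8 lists. At 0 min, 13.4% of all genes were called, and of the 17 COMPASS partners of KMT2A and menin tested, 1 was lower and 0 higher. Of 10 PRC2 partners none was called, and of 17 CoREST and LSD1 partners none (edgeR, as above). The median log2 changes of these lists were -0.04, 0.00 and 0.01. The COMPASS gene was Hcfc1, a host cell factor shared by several methyltransferase complexes, at 213, 229 and 236 CPM in control and 184, 169 and 169 CPM in cDKO (log2 change -0.37 ± 0.09, edgeR adjusted p = 0.0239). It was also lower at 60, 180 and 540 min.

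Among DOT1L and elongation partners, of the 18 tested 4 were higher and 0 lower, with a list median of 0.09. Mllt3 encodes AF9, a reader that brings DOT1L to chromatin, and is a frequent MLL fusion partner. It was 6.59, 8.84 and 6.99 CPM in control and 35.0, 27.0 and 59.0 CPM in cDKO at 0 min, higher by 2.44 ± 0.30 on the log2 scale (edgeR adjusted p = 0.00108). Aff3, of the AF4 family of elongation scaffolds, was 0.969, 0.188 and 1.06 CPM in control and 12.6, 28.5 and 9.44 CPM in cDKO. Mllt6, or AF17, another DOT1L partner, was 19.0, 24.5 and 20.4 CPM in control and 44.8, 41.2 and 54.4 CPM in cDKO. The groups did not overlap for any of these 3 genes, while Dot1l itself differed by -0.02. Mllt3 and Aff3 were also called at 60, 180 and 540 min, and Mllt6 at 180 and 540 min. Because cDKO libraries of a number correlated across times, calls at several times are not independent repeats, here or for other genes. The other called gene of the list, Ell2, an elongation factor named here after its value was seen, was higher by 1.00 ± 0.19 (edgeR adjusted p = 0.00954).

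**Figure D5:**
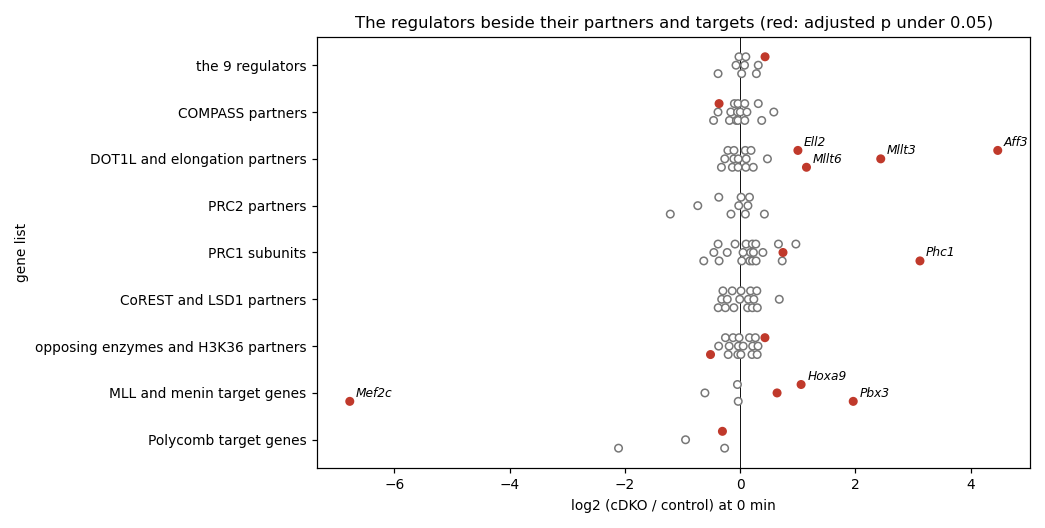
Log2 change in abundance at 0 min, cDKO over control, for each tested gene of the regulators and of 8 lists of partners and targets (red, adjusted p under 0.05). The 9 regulators lie between -0.38 (Kdm1a, -0.02 without cDKO replicate 2) and 0.43, while Mllt3, Aff3, Phc1 and Pbx3 lie above 1.9 and Mef2c at -6.77.

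Of 22 PRC1 subunits tested besides Bmi1, 2 were higher and 0 lower at 0 min, with a list median of 0.20. Phc1, a polyhomeotic protein that polymerises PRC1, was 0.969, 1.13 and 0.760 CPM in control and 6.63, 11.8 and 6.14 CPM in cDKO (log2 change 3.12 ± 0.47, edgeR adjusted p = 0.00294). Cbx6, a chromodomain subunit, was 112, 103 and 107 CPM in control and 176, 159 and 199 CPM in cDKO (0.74 ± 0.11). Phc1 was also called at 60 and 180 min, and Cbx6 at 180 and 540 min. Of 18 opposing enzymes and lysine 36 partners, Kdm4a, a demethylase, was higher at 0.43 ± 0.11, a call made at 0 min only. Hdgf, a relative of Psip1 with the same kind of PWWP domain, was lower at -0.51 ± 0.09, and it was called at all 4 times.

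Of 7 MLL and menin target genes tested, 3 were higher and 1 lower at 0 min. Hoxa9 was 2805, 2602 and 2450 CPM in control and 4598, 5050 and 6552 CPM in cDKO, and the retroviral and the endogenous gene could not be separated. Pbx3, a HOXA9 cofactor, was 11.4, 9.03 and 12.0 CPM in control and 39.6, 41.7 and 44.3 CPM in cDKO (log2 change 1.96 ± 0.18, edgeR adjusted p = 0.000221). Runx2 was higher by 0.64 ± 0.11. Mef2c, a transcription factor of MLL leukemias, had 297 reads in the 3 control libraries and 2 in the 3 cDKO libraries, a ratio of 127 per read sequenced (exact 95% binomial interval 34.9 to 1054, counting error only). Of 4 Polycomb targets tested, Igf2bp3 was lower at -0.31 ± 0.08. At 60, 180 and 540 min the background was 20.2, 18.9 and 19.3% of all genes. Of 17 COMPASS partners 1, 2 and 2 were higher and 2, 2 and 2 lower at these times, and of 18 DOT1L and elongation partners 3, 4 and 4 were higher and 1, 0 and 1 lower. PRC2 partners had 0, 1 and 1 higher and 2, 1 and 0 lower, of 10 tested at 60 min and 9 after that. Of 22 PRC1 subunits 2, 3 and 2 were higher and 2, 3 and 3 lower. CoREST and LSD1 partners had 1, 1 and 1 higher and 1, 0 and 1 lower of 17, and opposing enzymes 2, 1 and 1 higher and 2, 4 and 4 lower of 18. MLL and menin targets had 3 higher of 7 at each time and 1, 2 and 1 lower, and Polycomb targets 1, 0 and 1 higher and 1, 2 and 1 lower of 4 or 5. No gene of any list was called for a different decay or for relative labelling at 0 min (edgeR), and none for the change over time in cDKO. In control, between 0 and 540 min, 5 of 17 CoREST and LSD1 partners and 6 of 18 opposing enzymes were higher, with 0 and 1 lower, against 16.0% of all genes called in either direction. Of 22 PRC1 subunits 5 were higher and 2 lower, and of 18 DOT1L and elongation partners 3 and 1. COMPASS partners had 1 higher and 2 lower of 17, and PRC2 partners 1 and 1 of 10. MLL and menin targets had 0 higher and 1 lower of 7, and Polycomb targets 0 and 0 of 4.

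Single markers of other cell types, Hbb-bt, Pecam1, Itga2b, Cpa3, Gata2 and Hdc, were higher in the same cDKO libraries, while other genes of their lists were not. They are given above, and their part in these changes was not tested.

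The gene whose level was most like that of each regulator over the 24 libraries was found among 10804 genes. For Men1 it was Ccnd3, with a Pearson r of 0.90 on log2(CPM + 1), 0.95 within the 12 control and 0.84 within the 12 cDKO libraries. For Kdm1a it was Mrps28, with r of 0.91, 0.89 and 0.93 in the same order. For Suz12 it was Gxylt1, with r of 0.84 over all libraries, -0.10 within control and 0.95 within cDKO. The most alike genes of the other 6 were Zfp458 (Kmt2a, 0.82), Bloc1s3 (Psip1, 0.77), Hcst (Dot1l, 0.66), Lpgat1 (Ezh2, 0.68), 4833420G17Rik (Eed, 0.68) and Plekhh2 (Bmi1, 0.74). Libraries of a group share genotype, chase time and batch, so these values describe the libraries and carry no test.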

How the data were processed

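SLAM-seq labels new RNA with 4-thiouridine, which after alkylation reads as a T-to-C change. Libraries were made with the QuantSeq FWD kit, which reads messenger 3′ ends, and without molecular identifiers, so intervals cover counting error only. Per the labels and the study's methods, the authors aligned reads to GRCm38 with SlamDunk 0.4.3 and deposited, for each library and each 3′UTR interval, counts of reads, multimapping reads, covered T positions and conversions, the conversion rate as a fraction, and reads as CPM. Mismatch and variant filters are not given in the sources used here. The deposited counts were used, and rates and CPM were recomputed from them.

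Of 39419 lines per table, 39096 were named through RefSeq accessions of the same build and 253 by position, Kmt2a among them. Of overlapping intervals of a gene the longest was kept, and the 28916 kept intervals were summed per gene. Genotypes and times were compared with edgeR 4.0.16 (R 4.3.3), by the quasi-likelihood test with TMM scaling, filterByExpr and Benjamini-Hochberg adjustment over all genes tested, at an adjusted p under 0.05. Labelling and decay used conversions with an offset for covered T positions, which for labelling also held the library-wide rate. Half-lives required a coverage of 100 T positions in every library. The scripts were tested on simulated data. Alternatives were DESeq2 1.42.0, other scalings, filters, fits and intervals, and a replicate block. Each library was also left out, or each replicate number of a genotype where several times entered a test. Leaving out multimapping reads was added after the data were seen.

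Deviations of the cDKO libraries with the same number correlated across times (r 0.264 to 0.776 over 18 pairs), so their numbers were taken as pairing them. The control libraries did not (-0.03 to 0.15), and numbers did not pair the genotypes (-0.08 to 0.10). P-values measure the spread between these libraries. The genes and lists were chosen with earlier results of these data known. All 9 genes are named throughout, with up to 3 genes per list and direction by adjusted p at 0 min.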

Additional observations from a re-analysis of the deposited data

How the results depend on the processing

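The number of the 9 regulators called at 0 min was 1, and 0 with a replicate block (Suz12, log2 change 0.42, edgeR adjusted p = 0.0523) or without multimapping reads, and 0 to 1 with each library left out. At 60 min it was 0 without multimapping reads and 0 to 1 with each library left out, and for 540 against 0 min in control it was 0 to 1 with each number left out. The block, for which numbers pair only the cDKO libraries, changed no other call of the 9. With the library-wide rate left out of the offset all 9 were called for labelling, by construction, with log2 values of -1.07 (Kmt2a), -1.13 (Men1), -1.08 (Psip1), -1.19 (Dot1l), -1.49 (Ezh2), -1.04 (Eed), -1.02 (Suz12), -0.86 (Bmi1) and -1.08 (Kdm1a). Longer half-lives in cDKO were 1 of 4 (56.5% of all genes) after the background rate of 0.0751% was subtracted, 3 of 4 (84.6%) in a log-linear fit, 3 of 4 without cDKO replicate 3 and 6 of 9 (70.8%) without the SD filter.

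Changes that were not called turned sign in places, and the cause was not tested. Suz12 at 540 min was 0.0042 with no low-count filter, and its change over time in control was -0.15 without multimapping reads. For 540 against 0 min in cDKO, scaling by total reads gave 0.0072 (Kmt2a), 0.0027 (Psip1) and 0.0083 (Dot1l), and the block gave 0.0053 (Psip1). Without the 540 min libraries the decay difference was 0.0746 (Psip1), -0.12 (Dot1l), -0.0063 (Eed), -0.024 (Suz12) and -0.0467 (Bmi1), and with background subtracted it was -0.0049 (Dot1l). The medians of that difference were then 0.01 over the 9 and 0.03 over all genes without the 540 min libraries, and 0.05 and 0.04 with background subtracted. The log2 half-life ratio, cDKO over control, was 0.28 for Bmi1 in a log-linear fit and -0.0011 for Suz12 with background subtracted.

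Ranges with libraries left out also crossed 0. Within 1 time a single library was left out. For changes over time, decay and half-lives, all libraries of a replicate number of a genotype were left out together. At 0 min they were -0.15 to 0.10 (Dot1l), -0.0568 to 0.22 (Ezh2), -0.16 to 0.0737 (Eed) and -0.0688 to 0.19 (Bmi1). At 60 min they were -0.0004 to 0.16 (Psip1), -0.14 to 0.0735 (Bmi1) and -0.0302 to 0.18 (Kdm1a). At 180 min they were -0.0096 to 0.14 (Kmt2a), -0.0173 to 0.29 (Psip1), -0.10 to 0.10 (Eed) and -0.0468 to 0.17 (Suz12). At 540 min they were -0.0013 to 0.25 (Psip1), -0.17 to 0.015 (Dot1l), -0.0694 to 0.0948 (Suz12), -0.0789 to 0.19 (Bmi1) and -0.24 to 0.23 (Kdm1a). Over time in control they were -0.0343 to 0.26 (Psip1), -0.0817 to 0.23 (Dot1l) and -0.0879 to 0.32 (Bmi1), and in cDKO -0.10 to 0.12 (Kmt2a), -0.27 to 0.18 (Psip1), -0.21 to 0.14 (Dot1l), -0.35 to 0.0569 (Ezh2) and -0.28 to 0.62 (Kdm1a). The difference of these was -0.40 to 0.0437 (Psip1), -0.26 to 0.11 (Dot1l) and -0.16 to 0.25 (Bmi1). Relative labelling was -0.0015 to 0.17 (Kmt2a), -0.23 to 0.27 (Men1), -0.0388 to 0.22 (Psip1), -0.14 to 0.12 (Dot1l), -0.0819 to 0.23 (Eed) and -0.0499 to 0.23 (Kdm1a). The decay difference of Psip1 was -0.13 to 0.0066, and the log2 half-life ratio of Bmi1 was -1.11 to 0.12.

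Of 1043 values of single regulators over the alternatives, 950 kept direction and call. Counts over all genes moved more, from 635 to 2289 at 0 min (1361 in the report), 1294 to 2323 at 60 min, 1155 to 2330 at 180 min, 1180 to 2319 at 540 min, 606 to 1964 over time in control, 0 to 128 over time in cDKO, 0 to 6 for the difference, 13 to 7433 for labelling and 1 to 278 for decay. Rates at 540 min rested on few conversions (0 to 66 per library and gene), which limits every decay slope.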
